A study of Mus musculus with 24 samples.

Results

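The cytosolic ribosomal protein mRNAs encode the proteins of the large (Rpl) and small (Rps) subunits of the ribosome. Members were chosen by symbol, as a single Rpl or Rps symbol with a number, or Rplp0, Rplp1, Rplp2 or Rpsa, with a count above 0 in all 24 libraries. Rps6k kinases, pseudogene symbols ending in -ps and symbols ending in l1 or l2 were left out. The rule found 73 members of 11438 genes tested, 44 of the large and 29 of the small subunit, and used no comparison between groups.

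Organoids grown from pancreatic ducts of wild-type C57Bl/6J mice (normal, N) or from tumours of mice whose engineered alleles included Trp53+/LSL-R172H under Pdx1-Cre (KP) were given vehicle or 10 nM CR-31, a synthetic rocaglate that inhibits the RNA helicase eIF4A, for 1 h. Pdx1-Cre recombines such alleles in pancreatic epithelium. Organoids were maintained in medium with EGF and N-acetyl cysteine, and the experiments were done without both. For each of 12 lysates (4 groups, n = 3) mRNA carrying at least 3 ribosomes (polysome-associated mRNA) and total mRNA of the unfractionated lysate were sequenced, and the labels do not say whether replicates were separate cultures, so p-values measure the spread between these lysates.

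Ribosomes are built from equimolar sets of these proteins, and their mRNAs are among the most abundant and most evenly expressed in growing cells. Most begin with a 5′ terminal oligopyrimidine (TOP) tract, a C followed by a run of pyrimidines, through which mTOR signalling and LARP1 move the whole set between polysomes and free messenger particles. eIF4A unwinds the leader of mRNAs as part of the cap-binding complex eIF4F, and the short leaders of TOP mRNAs are generally held to need little unwinding.

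Of 76 matching symbols, 3 did not pass the count filter. Rpl39l, a testis-enriched paralog, had no count in any library, Rpl10l had counts in 1 library (highest 6) and Rpl3l, the muscle paralog of Rpl3, in 15 libraries (highest 5). A further 8 matching genes were counted only jointly with another symbol and were not tested, namely Rps25, Rpl5, Rps27a, Rpl35, Rpl34, Rpl31, Rps27 and Rpl32, with RPKM between 814 for the entry of Rpl5 and 6530 for that of Rps27. Reads that map to several places were discarded upstream, so members with many processed pseudogenes could be undercounted to an unknown degree.

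The RefSeq starts of the members were read first, since the TOP tract lies there. A start was found for 55 of 73 members. Where a gene had several annotated starts, the start with the longest run of C and T was used, for members and all genes alike. The shares below thus also depend on the number of starts per gene, which was not compared. The capitals below mark the run of C and T that overlaps the 6 bases around the annotated start, within 30 bases (10 before and 20 after it, GRCm38.p6, 5′ to 3′ on the transcript strand). The mRNAs of the stalk protein Rplp2 (chr7:141447641-141447670, plus strand), of Rps6 (chr4:86857348-86857377, minus), the phosphorylated small subunit protein, of Rpl38 (chr11:114668570-114668599, plus) and of Rpl35a (chr16:33056472-33056501, plus) are shown as runs of 10 bases or more. Rpl41 (chr10:128549149-128549178, minus), Rps2 (chr17:24720053-24720082, plus) and Rps27l (chr9:66946076-66946105, plus) are shown because they had the high polysome differences described below, and Rpl23 (chr11:97782420-97782449, minus) because it had a low one.
Rplp2: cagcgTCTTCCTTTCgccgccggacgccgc
Rps6: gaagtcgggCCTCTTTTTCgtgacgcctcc
Rpl38: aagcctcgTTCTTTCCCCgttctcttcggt
Rpl35a: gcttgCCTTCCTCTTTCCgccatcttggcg
Rpl41: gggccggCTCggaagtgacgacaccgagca
Rps2: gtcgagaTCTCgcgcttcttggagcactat
Rps27l: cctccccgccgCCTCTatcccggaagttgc
Rpl23: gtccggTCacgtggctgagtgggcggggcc
A run of at least 5 such bases was present in 25 of the 55 members (45.5%), against 27.4% of all 27025 genes with a RefSeq start, and a run of at least 8 in 18 (32.7%), against 8.71%. The letters CTTTCC occurred on either strand within 25 bases of the start in 9 members (16.4%, all genes 4.58%), in 8 of them on the transcript strand (14.5%, all genes 2.57%). These shares describe the annotated windows, and a gene whose annotated start differs from the start used in ducts would be missed.

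The 73 members took between 11.1% and 19.2% of all counted reads of a library, at 47308461 to 267463046 counted reads per library. In total mRNA of vehicle-treated N organoids the shares were 13.1%, 14.6% and 19.2% for replicates 1, 2 and 3 (15.6% ± 3.15, SD, n = 3), and in polysome-associated mRNA of the same lysates 12.5%, 13.7% and 13.1% (13.1% ± 0.593). In vehicle-treated KP organoids they were 15.1%, 15.5% and 16.3% in total (15.6% ± 0.642) and 13.3%, 15.5% and 16% in polysome-associated mRNA (14.9% ± 1.44). Replicate 3 of N stood apart from the other lysates, in opposite directions by treatment. With vehicle its share was 19.2% in total and 13.1% in polysome-associated mRNA, and with CR-31 11.2% in total and 18.7% in polysome-associated mRNA, so that the total library with vehicle and the polysome library with CR-31 were the highest of all 24. In the other CR-31-treated N lysates the shares were 11.1% and 14.2% in polysomes and 11.4% and 13.5% in total mRNA. In CR-31-treated KP organoids they were 14%, 14.4% and 16% in polysomes and 15.9%, 14.4% and 15.1% in total mRNA. Other genes stood apart there too. Across 8165 genes that were no members (mean log2 CPM above 3), the log2 ratios of polysome to total mRNA correlated with an r of 0.78 to 0.88 between pairs of the other 4 N lysates, but of 0.07 to 0.28 for vehicle replicate 3 and 0.23 to 0.35 for CR-31 replicate 3 with those lysates, and of -0.59 between the vehicle and CR-31 lysates of replicate 3. With the total libraries of replicate 3 paired across treatments, r with the other N lysates was 0.28 to 0.55 and 0.32 to 0.62. The labels were kept as deposited, and whether libraries of this replicate were exchanged was not settled by these values, a check added after the data were seen. The counts and medians of each comparison with N are therefore also given without both lysates of N replicate 3, and since all groups share 1 estimate of the spread, these lysates also enter the tests within KP.

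**Figure D1:**
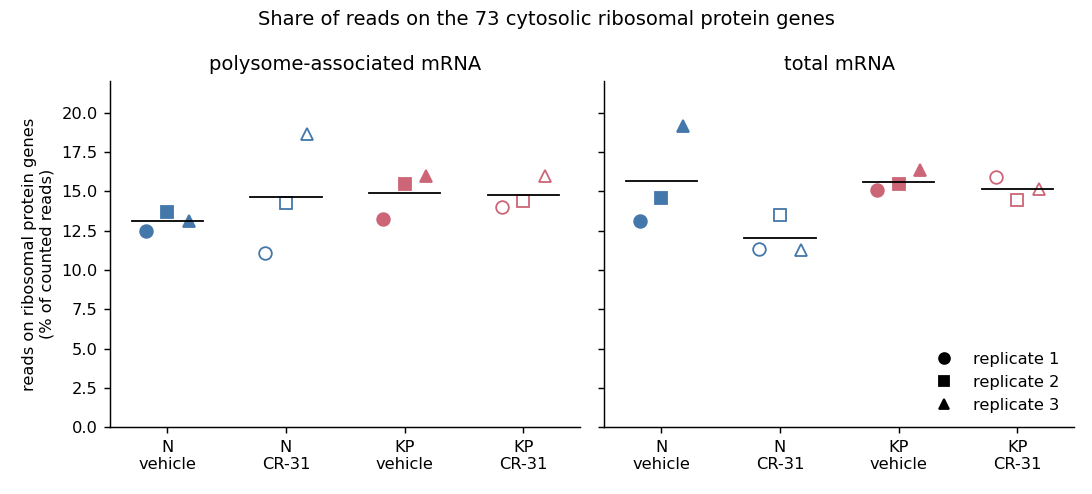
Share of counted reads on the 73 ribosomal protein genes (%, y axis) in each of the 24 libraries, by organoid and treatment, polysome-associated mRNA on the left and total mRNA on the right. Symbols mark replicates 1 to 3, open symbols CR-31, and bars group means; replicate 3 of N lies at 19.2% in total mRNA with vehicle and at 18.7% in polysomes with CR-31.

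Per length, the members were far more abundant than the typical gene. Their median level in total mRNA of the 6 vehicle-treated lysates was 2794 RPKM (reads scaled by transcript length and library size), with quartiles of 1828 and 3430, against a median of 7.15 RPKM over all tested genes, and 62 of the 100 genes with the highest RPKM were members. The highest were Rps2, a protein of the mRNA entry channel (6418 RPKM), the stalk protein Rplp1 (6101 RPKM) and Rpl41, the smallest member (5984 RPKM). The lowest were Rpl32l (3.78 RPKM), Rpl21 (208 RPKM) and Rps15a (239 RPKM). Rpl32l is named as a copy of Rpl32. Duct markers checked the label of the cultures, since all 10 (Krt19, Epcam, Sox9 and others) exceeded 1 CPM (library-scaled counts) in every library, while the summed markers of other types did not exceed 0.16 CPM for endocrine, 0.343 for endothelial, 0.814 for fibroblast, 6.57 for acinar and 24.5 for immune cells, against at least 6050 CPM for the duct markers.

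Vehicle-treated KP and N organoids were compared to ask which mRNAs differ in translation in the tumour-derived cells. In polysomes most ribosomal protein mRNAs lay higher in KP, while the direction in total mRNA depended on N replicate 3, with a median of -0.07 with it and 0.18, with 60 of 73 members above 0, without it. By edgeR's quasi-likelihood test with Benjamini-Hochberg adjustment over all 11438 genes, at the adjusted p threshold of 0.25 that the study used, 22 members (30.1%) were higher in KP polysomes, against 20.9% of all genes tested, and 2 (2.74%) were lower, against 22.2% of all genes tested. An unadjusted p under 0.05 was found for 13 members (17.8%), against 32.5% of all genes. The median log2 fold change was 0.34 over the members and -0.03 over all genes, and 62 of 73 members lay above 0. In 29 members (39.7%, all genes 18%) all 3 KP libraries exceeded all 3 N libraries, and in 4 (5.48%, all genes 15.8%) all KP libraries lay below. The median was 0.39 over the 44 large subunit members, of which 14 were called higher and 2 lower, and 0.33 over the 29 small subunit members, of which 8 were called higher and 0 lower. Of the 4 sequencing lanes, 2 held N and 2 held KP libraries and 0 held both, so organoid type and lane cannot be told apart. In bulk libraries, fewer cells of a type and less RNA per cell cannot be told apart either. Summed fibroblast markers (5 genes) were at 0.402 to 0.814 CPM in N and 0.0406 to 0.245 CPM in KP libraries, with 2 of the 5 at 0 in all libraries of each, and summed immune markers (4 genes) at 4.47 to 24.5 CPM in N and 1.76 to 8.32 CPM in KP, and their part in the differences was not tested.

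The stalk proteins, which recruit the translation factors to the ribosome, were called higher in KP polysomes. Rplp0, the base of the stalk, was at 4802, 5051 and 5388 CPM in N and 5127, 7556 and 10082 CPM in KP, where the lowest KP library lay among the N libraries (log2 fold change 0.58, SE 0.306, edgeR adjusted p = 0.212). Its partner Rplp1 was at 2333, 1919 and 2614 CPM in N and 2745, 3372 and 3755 CPM in KP (0.52, SE 0.243, adjusted p = 0.157 by edgeR). Rplp2 was at 1381, 1509 and 1495 CPM in N and 1997, 2551 and 2313 CPM in KP (0.65, SE 0.249, adjusted p = 0.0964 by edgeR). For Rplp1 and Rplp2 the groups did not overlap. Rpl11, which carries 5S rRNA into the ribosome together with Rpl5 and binds Mdm2 when ribosome assembly fails, was among the tightest, at 1445, 1360 and 1465 CPM in N and 2371, 2220 and 2242 CPM in KP (0.68, SE 0.233, edgeR adjusted p = 0.0686). Its total mRNA was at 1364, 1501 and 2000 CPM in N and 1749, 1818 and 1812 CPM in KP, where the groups overlapped.

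Among the other large subunit members, Rpl41, a peptide at the interface of the subunits, was at 2621, 2910 and 2529 CPM in N and 3941, 5058 and 5067 CPM in KP polysomes (0.80, SE 0.258, edgeR adjusted p = 0.0539). Rpl8, which lies near the peptidyl transferase centre, was at 1880, 2202 and 2053 CPM in N and 3273, 3554 and 3044 CPM in KP (0.69, SE 0.205, adjusted p = 0.0423 by edgeR). Rpl18 was at 1478, 1382 and 2096 CPM in N and 2618, 3324 and 2445 CPM in KP (0.76, SE 0.279, adjusted p = 0.0833 by edgeR). None of these 3 overlapped between the groups. Rpl38, known from the mouse Tail short mutation, was called with a smaller difference (0.45, SE 0.257, edgeR adjusted p = 0.244). Rpl32l had the largest fitted value among the large subunit members (0.84, SE 0.413, edgeR adjusted p = 0.18), but at 1.26, 1.27 and 1.9 CPM in N and 2.42, 3.63 and 1.9 CPM in KP polysomes, where the groups touched.

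In the small subunit, Rps27l, the paralog of Rps27 and a known target of p53, had the largest increase of all members with all lysates in the fit. Without N replicate 3 its value was 0.79, below those of Rpl32l (1.06), Rpl18 (0.97) and Rps2 (0.94), among others. It was at 481, 394 and 371 CPM in N and 905, 815 and 550 CPM in KP polysomes (0.87, SE 0.242, edgeR adjusted p = 0.0345). In total mRNA Rps27l was at 464, 574 and 556 CPM in N and 668, 740 and 635 CPM in KP, without overlap but not called (0.36, SE 0.193, edgeR adjusted p = 0.283). Rps2 was at 3914, 5019 and 5246 CPM in N and 6298, 9343 and 10159 CPM in KP polysomes (0.86, SE 0.292, adjusted p = 0.0644 by edgeR). Rpsa, the laminin receptor precursor at the mRNA exit side, was at 3615, 4468 and 3780 CPM in N and 4439, 8009 and 7591 CPM in KP, where the lowest KP library fell just below the highest N library (0.76, SE 0.254, edgeR adjusted p = 0.0629). Rps15, at the decoding site, gave 0.70 (SE 0.287, edgeR adjusted p = 0.112).

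**Figure D2:**
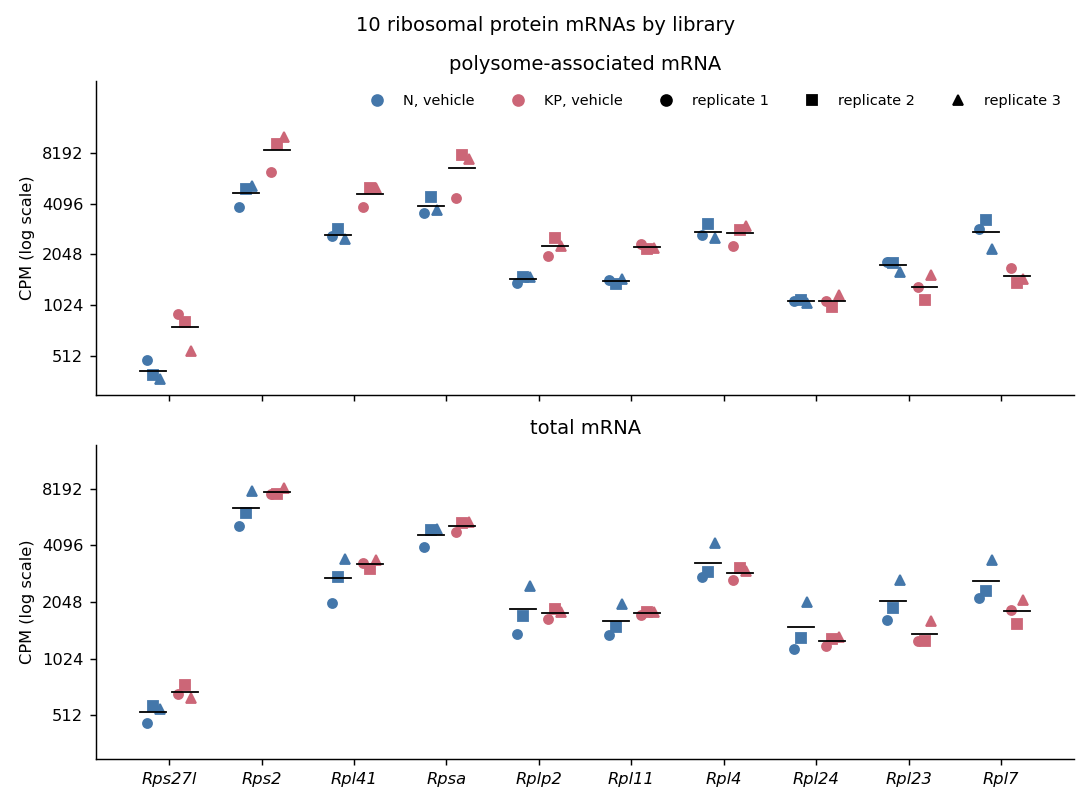
Library-scaled counts (CPM, log-scaled y axis) of 10 ribosomal protein mRNAs in each vehicle-treated library, N in blue and KP in red, polysome-associated mRNA above and total mRNA below; symbols mark replicates and bars means. In polysomes the KP libraries of Rps27l, Rps2, Rpl41, Rplp2 and Rpl11 lie above all N libraries, while those of Rpl7 and Rpl23 lie below them, and in total mRNA N replicate 3 (blue triangle) is the highest N library for all shown except Rps27l.

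The members did not move as a block. Rpl7, a large subunit protein, was lower in KP polysomes, at 2913, 3295 and 2195 CPM in N and 1699, 1391 and 1468 CPM in KP (-0.88, SE 0.245, edgeR adjusted p = 0.0337). Rpl23, a core protein that also binds Mdm2, was at 1860, 1835 and 1609 CPM in N and 1309, 1104 and 1550 CPM in KP (-0.42, SE 0.22, adjusted p = 0.206 by edgeR). Both were also the only members called in total mRNA. Of the members fixed by role, 6 lay near 0 in polysomes, between -0.14 and 0.09, namely Rpl3 and Rpl4, core proteins of the large subunit, Rpl10, a late-joining protein of the transfer RNA sites, Rpl24, at the subunit bridge, Rps19, mutated in Diamond-Blackfan anaemia, and Rps28. Rpl4 was at 2689, 3122 and 2565 CPM in N and 2310, 2860 and 3041 CPM in KP polysomes. Rpl24 was at 1085, 1103 and 1048 CPM in N and 1089, 1002 and 1176 CPM in KP. In both, the groups overlapped throughout.

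Further members of the role panel were not called in polysomes, with positive values. They were Rpl13a (0.63, SE 0.366, edgeR adjusted p = 0.251), a factor of interferon-dependent translational silencing, Rpl22 (0.43), Rps14 (0.48), Rps3 (0.33), Rps20 (0.32), Rpl39 (0.31), Rps6 (0.28) and Rpl36al (0.47), a paralog of Rpl36a. Their adjusted p-values were 0.448, 0.329, 0.415, 0.345, 0.511, 0.468 and 0.256 in the order from Rpl22 to Rpl36al by edgeR's test. Without both lysates of N replicate 3, 6 of these 8 were called higher (all genes 26.3%), namely Rpl13a (0.91), Rps14 (0.78), Rpl22 (0.69), Rps3 (0.52), Rpl39 (0.43) and Rps6 (0.36), with adjusted p of 0.0459, 0.0369, 0.124, 0.0981, 0.182 and 0.131 by edgeR's test, while Rps20 (0.28) and Rpl36al (0.33) were not. For Rps14 replicate 3 of N, at 3976 CPM, exceeded KP replicates 1 and 3, at 3362 and 3908 CPM.

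In total mRNA of the same lysates 0 members were called higher in KP (all genes 13.1%) and 2 lower (all genes 15.4%), with a median of -0.07 (all genes -0.03). An unadjusted p under 0.05 was found for 1 member (1.37%, all genes 24.4%), and DESeq2 called 1 member higher and 2 lower (all genes 30.4% in either direction). By replicate the median was 0.22, 0.06 and -0.38, with 66, 41 and 4 of 73 members above 0. Rpl7 was at 2163, 2334 and 3430 CPM in N and 1857, 1573 and 2096 CPM in KP (-0.52, SE 0.209, edgeR adjusted p = 0.148). Rpl23 was at 1639, 1908 and 2669 CPM in N and 1278, 1267 and 1620 CPM in KP (-0.58, SE 0.265, edgeR adjusted p = 0.205). The KP libraries of both lay below all N libraries. Rpl37rt, a retrotransposed copy of Rpl37, came next (0.87, SE 0.443, edgeR adjusted p = 0.251), and rested on KP replicate 2, at 510 CPM against 161 and 140 CPM in the other KP libraries and 87.4, 158 and 197 CPM in N.

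Translational efficiency, the change in polysomes relative to that in total mRNA in 1 model of all libraries, had a positive median (0.29, all genes 0.00) and 66 of 73 members above 0. None was called by edgeR, among 0% of all genes, and 2 members (2.74%) had an unadjusted p under 0.05 against 11.3% of all genes, while DESeq2 called 0. The smallest p-values were those of Rpl36 (0.71, SE 0.291), Rplp2 (0.62, SE 0.277) and Rps15 (0.63, SE 0.296), with adjusted p of 0.433, 0.434 and 0.44 by edgeR's test. A regression of polysome on total mRNA, the form of test the study used, called 9 members higher (all genes 6.62%) and 1 lower (all genes 4.46%).

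Without both lysates of N replicate 3 the polysome difference was wider. By edgeR's test 41 members were then higher (all genes 26.3%) and 4 lower (all genes 26.3%), with a median of 0.42. In total mRNA the median turned from -0.07 to 0.18, with 3 members higher (all genes 8.25%) and 0 lower. Among those 3 were Rpl21 and Rps6, at 1.09 and 0.44 (edgeR adjusted p = 0.0302 and 0.153), and Rpl7 and Rpl23 were no longer called. For translational efficiency the median fell to 0.13, while 17 members were called higher (all genes 20%) and 3 lower (all genes 15.8%). Leaving out single lysates moved the 24 polysome calls to 8 without KP vehicle replicate 2 (all genes 32.2%), 14 without KP vehicle replicate 3 (all genes 38%), 10 without N vehicle replicate 2 (all genes 32.2%) and 15 without N vehicle replicate 1 (all genes 41.5%), and to 39 and 38 without N CR-31 replicates 1 and 3 (all genes 44.9% and 45.8%). In total mRNA the 2 calls became 10 without N vehicle replicate 1 (all genes 32.8%), 1 without N vehicle replicate 2 (all genes 20.2%), 1 without KP vehicle replicate 1 (all genes 14.1%) and 0 without KP vehicle replicate 2 (all genes 20.5%). Without N vehicle replicate 3 they became 3 (all genes 16%), all of them higher in KP. The median in polysomes stayed positive in each of these fits, between 0.29 and 0.41, while that in total mRNA ranged from -0.23 to 0.18. When same-numbered lysates of an organoid type were blocked, 43 members were called higher (all genes 34%) and 4 lower (all genes 34.8%) in polysomes, and 3 higher (all genes 27.7%) and 6 lower (all genes 28.7%) in total mRNA. Such blocks lie within N or KP, so this fit takes the spread between replicates out of the error of a comparison between them.

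**Figure D3:**
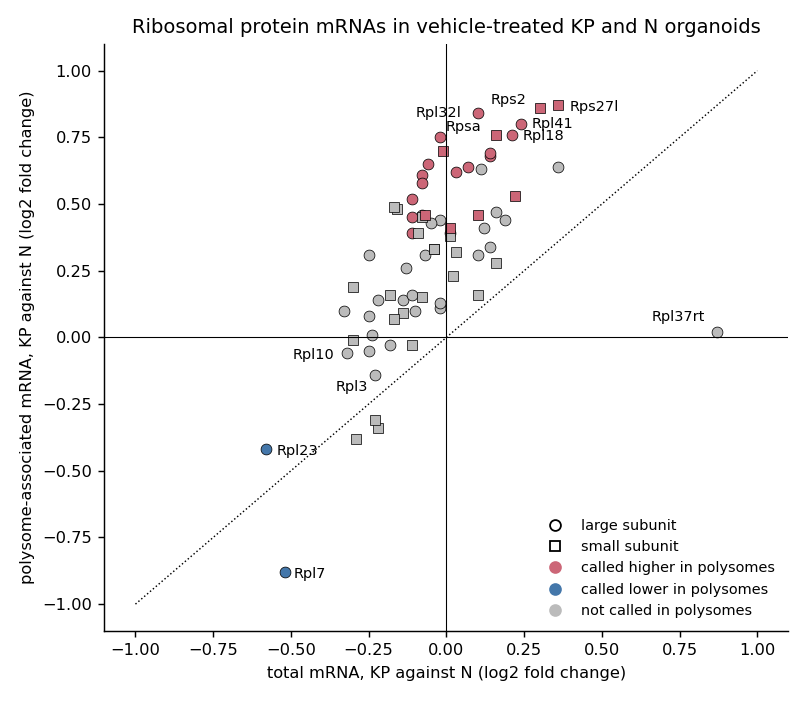
Log2 fold change of KP against N in total mRNA (x axis) and in polysome-associated mRNA (y axis) for the 73 members, circles for the large and squares for the small subunit, coloured where called in polysomes. The dotted line marks equal change, most members lie above it, and Rpl7 and Rpl23 lie low on both axes; Rpl37rt at the right rests on 1 library.

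Other TOP mRNAs, outside the ribosomal proteins, had medians below 0. Of 21 such genes (elongation factors, eIF3 subunits and others listed as TOP mRNAs), 4 were higher (all genes 20.9%) and 2 lower (all genes 22.2%) in KP polysomes, with a median of -0.07, and 0 were higher (all genes 13.1%) and 6 lower (all genes 15.4%) in total mRNA, with a median of -0.33. Leaving out both lysates of N replicate 3, 6 were higher and 4 lower in polysomes (median -0.11, all genes 26.3% in each direction) and 0 higher (all genes 8.25%) and 0 lower (all genes 10.7%) in total mRNA (median -0.13). Among the 4 called higher were Eef1g, an elongation factor subunit (0.83, edgeR adjusted p = 0.0293), Rack1, a protein of the small subunit (0.58, adjusted p = 0.216 by edgeR), and Fau (0.56, edgeR adjusted p = 0.202), which encodes Rps30 as a fusion with a ubiquitin-like protein. Of the paralogs outside the rule, Rpl22l1 was lower in KP in both fractions, at 673, 397 and 526 CPM in N and 335, 268 and 340 CPM in KP polysomes (-0.76, SE 0.249, edgeR adjusted p = 0.058). In total mRNA Rpl22l1 was at 729, 526 and 750 CPM in N and 407, 280 and 405 CPM in KP (-0.88, SE 0.231, edgeR adjusted p = 0.0371). Its partner Rpl22 was at 451, 747 and 947 CPM in N and 972, 991 and 937 CPM in KP polysomes. Rpl7l1, a homologue of Rpl7, was at 157, 114 and 164 CPM in N and 195, 96.9 and 148 CPM in KP polysomes and overlapped between the groups.

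Within the vehicle-treated lysates, polysome-associated was compared with total mRNA, relative to the typical mRNA, which the normalization sets near 0. In N, 0 members were higher (all genes 8.83%) and 27 lower (37%, all genes 6.36%) in polysomes by edgeR's test, with a median of -0.37 (all genes -0.05). In KP, 0 were higher (all genes 14.2%) and 10 lower (13.7%, all genes 13.3%), with a median of -0.10 (all genes -0.02). Across 11383 tested genes this fold change rose with coding length in N (Spearman's rho 0.47, without N replicate 3 0.50). In KP that rho was -0.15, and across 71 members it was 0.04 in N and -0.11 in KP. Members are short (median coding length 468 nt, all tested genes 1377 nt), and the part of length in these values was not tested. By lysate the members' median log2 ratio of polysome to total mRNA was -0.12, -0.32 and -0.68 in N and -0.12, -0.07 and -0.13 in KP for replicates 1, 2 and 3. The KP values lay close together, and N replicate 1 lay among them. Without both lysates of N replicate 3 the N median was -0.25, with 30 members lower (all genes 20.7%) and 1 higher (all genes 15%). Without N vehicle replicate 3 alone, which leaves its CR-31 lysate in the spread, 0 were lower and 1 higher (all genes 22.1% in either direction), without N vehicle replicate 2 none was called (all genes 1.75%), and without KP vehicle replicate 3 the count was 14 (all genes 11.8%).

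Rps4x, Rps24 and Rps12 of the small subunit were called lower in polysomes than in total mRNA in both organoid types. Rps4x, the X-linked Rps4, was at -0.70 (SE 0.213, edgeR adjusted p = 0.0915) in N and -0.84 (SE 0.21, edgeR adjusted p = 0.0614) in KP. Rps24, which is mutated in Diamond-Blackfan anaemia, was at -0.67 (SE 0.199, adjusted p = 0.0825 by edgeR) in N and -0.84 (SE 0.198, adjusted p = 0.0544 by edgeR) in KP. Rps12 was at -0.65 in both, with adjusted p of 0.0763 in N and 0.0798 in KP by edgeR's test. Without both lysates of N replicate 3 the values in N were -0.37 for Rps4x, -0.45 for Rps24 and -0.41 for Rps12, all of them still called (edgeR adjusted p = 0.196, 0.167 and 0.0996). Rpl32l (-0.71, edgeR adjusted p = 0.117) was the lowest in N, where Rpl10 (-0.56, edgeR adjusted p = 0.102), Rplp1 (-0.58, edgeR adjusted p = 0.123) and Rplp0 (-0.67, edgeR adjusted p = 0.16) were also lower. In KP the lowest also included Rpl37rt (-0.83, edgeR adjusted p = 0.203), Rps6 (-0.40, edgeR adjusted p = 0.203), Rpl3 (-0.37, edgeR adjusted p = 0.196) and Rpl10 (-0.37, edgeR adjusted p = 0.212). At the other end in KP were Rpl41, with a coding sequence of only 75 nt, at 0.42, and Rps14 and Rps15 at 0.40, none of them called. With both lysates of N replicate 3 out of the shared estimate of the spread, 29 members were lower (all genes 24.7%) and 13 higher (all genes 23.1%) in KP, Rpl41 and Rps15 among the latter (edgeR adjusted p = 0.0597 and 0.0521). Single lysates decided the KP count as well, since it was 0 without KP vehicle replicate 1 or 2 (all genes 0.481% and 0.525%), 2 without KP vehicle replicate 3 (all genes 6.08%), 22 without KP CR-31 replicate 1 (all genes 34.4%), and 32 and 28 without N CR-31 or N vehicle replicate 3 (all genes 33.4% and 37.5%).

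CR-31 was compared with vehicle to ask which mRNAs leave polysomes when eIF4A is inhibited for 1 h. In KP organoids the fit to group means called no ribosomal protein mRNA as changed in either fraction, and no other gene. That fit left same-numbered lysates unpaired and kept N replicate 3 in the shared spread. With both changed, members were called in KP polysomes, as given below. The study, with its own test at the same threshold of 0.25, reported marked changes of translation in KP with CR-31. In polysomes 0 of 73 members were called by edgeR's test, among 0% of all genes, with a median of -0.08 (all genes -0.02), and 0 members had an unadjusted p under 0.05 against 3.55% of all genes. In total mRNA the median was 0.01 with 0 called (0% of all genes) and 1 unadjusted p under 0.05 (all genes 0.953%), and for translational efficiency 0.01 with 0 called (0% of all genes) and 2 such p-values (all genes 5.48%). DESeq2 called 0 members in each of the 3. By replicate the polysome medians were -0.06, -0.27 and 0.01, so that their mean of -0.11 did not exceed their SD of 0.151. Within the 2 lanes of KP the median was -0.11 in each. In total mRNA the replicates differed in sign, with medians of 0.30, -0.18 and -0.12 and 61, 0 and 1 of 73 members above 0, and the lanes gave -0.16 and 0.24.

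The smallest p-values in KP polysomes were those of Rpl7, Rpl8 and Rps3a1. Rpl7 was at 1699, 1391 and 1468 CPM with vehicle and 2485, 1748 and 1872 CPM with CR-31 (0.42, SE 0.244, edgeR adjusted p = 1). Rpl8 was at 3273, 3554 and 3044 CPM with vehicle and 2582, 2576 and 2719 CPM with CR-31 (-0.33, SE 0.204, edgeR adjusted p = 1). Rps3a1 was at 2042, 2175 and 2155 CPM with vehicle and 3068, 2620 and 2421 CPM with CR-31 (0.35, SE 0.235, edgeR adjusted p = 1). None of the 3 overlapped between vehicle and CR-31. In all, 2 members (2.74%, all genes 8.94%) lay higher and 4 (5.48%, all genes 10.5%) lower with CR-31 without overlap. In total mRNA the smallest p-values were those of Rpl37rt (-1.07), again with vehicle replicate 2 at 510 CPM, Rpl23 (-0.32) and Rps3a1 (-0.25), and for translational efficiency those of Rps24 (0.66), Rps3a1 (0.67) and Rpl23 (0.65), with adjusted p of 1 in total mRNA and 0.529 in translational efficiency by edgeR's test.

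The numbered replicates of vehicle and CR-31 deviated together, and a replicate block called 1 member lower (all genes 11.1%) and 0 higher (all genes 8.3%) in KP polysomes. With the block and without both lysates of N replicate 3, a fit chosen after seeing the data, 26 members were lower (all genes 29.5%) and 7 higher (all genes 25.4%) with CR-31 in KP polysomes. The lowest included Rpl36 (-0.44, SE 0.125) and Rps15 (-0.40, SE 0.118), with adjusted p of 0.0186 and 0.0209 by edgeR's test. The 7 higher were Rpl7 (0.41), Rps3a1 (0.34), Rps24 (0.33), Rps4x (0.30), Rps12 (0.27), Rps15a (0.23) and Rpl23 (0.21), with adjusted p between 0.0226 and 0.229. In the same fit 14 members were lower (all genes 22%) and 13 higher (all genes 24.1%) in translational efficiency.

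In N organoids the CR-31 values followed replicate 3. The members' median was 0.21 in polysomes (all genes 0.00), -0.46 in total mRNA (all genes 0.00) and 0.56 for translational efficiency (all genes -0.01), with 0 members called by edgeR among 0% of all genes in each, and 0 by DESeq2. By replicate the polysome medians were -0.27, 0.14 and 0.58, the total mRNA medians -0.26, -0.18 and -0.85, and those of the ratio -0.01, 0.29 and 1.41. Without both lysates of N replicate 3 the medians were -0.05, -0.22 and 0.14. The polysome median thus changed direction, and the total mRNA median stayed negative in every replicate. Within lanes it was -0.28 and 0.31 in polysomes and -0.40 and -0.76 in total mRNA, where the second lane held replicate 3 of both treatments.

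An unadjusted p under 0.05 was found for 24 members (32.9%, all genes 2.6%) in total mRNA, 32 (43.8%, all genes 2.87%) in translational efficiency and 1 (1.37%, all genes 0.42%) in polysomes of N, and for 0 members in each of these without N replicate 3. In total mRNA 14 members (19.2%, all genes 3.23%) lay lower with CR-31 without overlap. Among them was Rplp1, at 2781, 3004 and 4194 CPM with vehicle and 2340, 2425 and 2181 CPM with CR-31 (-0.52, SE 0.198, edgeR adjusted p = 1). Rps12 was at 2385, 3039 and 3762 CPM with vehicle and 1971, 2511 and 1862 CPM with CR-31 (-0.53, SE 0.197), and Rps20, mutated in familial colorectal cancer, at 1729, 2005 and 2773 CPM with vehicle and 1425, 1769 and 1374 CPM with CR-31 (-0.51, SE 0.196). For these the groups overlapped and the edgeR adjusted p was 1. In polysomes the smallest p-values were those of Rpl37rt (0.62), Rpl39 (0.40) and Rpl41 (0.33), and for translational efficiency those of Rpl29 (0.78), Rps20 (0.68) and Rplp1 (0.71), with adjusted p of 1 and 0.736 by edgeR's test.

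**Figure D4:**
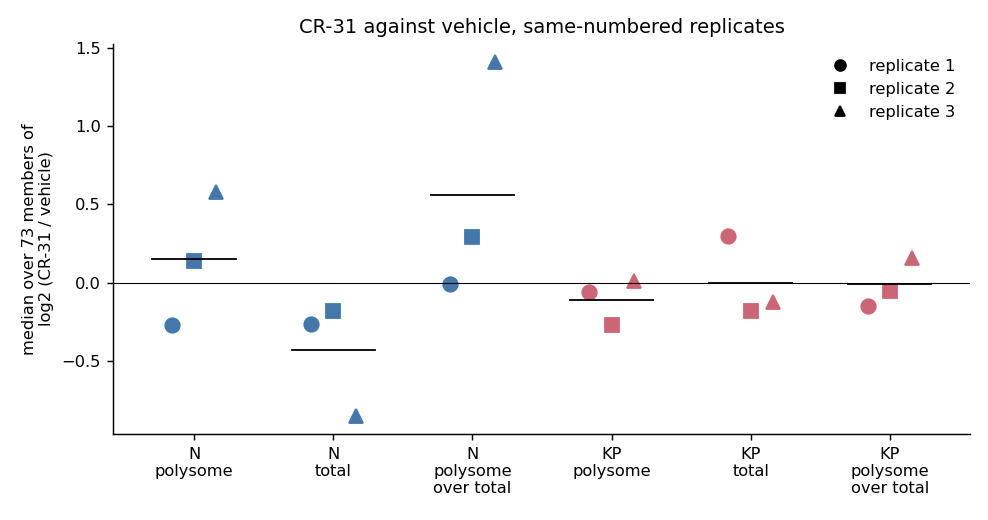
Median over the 73 members of the log2 ratio of CR-31 to vehicle (y axis) for same-numbered replicates, in polysome-associated mRNA, total mRNA and their ratio, N in blue and KP in red; bars are means of 3. N replicate 3 lies at 0.58, -0.85 and 1.41, apart from the other points, and the KP points scatter around 0.

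The difference of the CR-31 effects, KP minus N, had a median over members of -0.29 in polysomes, 0.44 in total mRNA and -0.58 in translational efficiency (all genes 0.00, 0.02 and 0.05). No member was called by edgeR in any of them, among 0% of all genes. With the replicate block and without both lysates of N replicate 3, 4 members were called higher (all genes 11.1%) and 5 lower (all genes 15.9%) in polysomes and 0 in total mRNA and translational efficiency. An unadjusted p under 0.05 was found for 0 members in polysomes (all genes 2.26%), 0 in total mRNA (all genes 0.131%) and 14 in translational efficiency (19.2%, all genes 10.7%). The smallest p-values included those of Rpl41 (-0.65), Rpl37rt (-0.71) and Rps15 (-0.70) in polysomes, Rplp1 (0.57), Rplp0 (0.62) and Rps16 (0.62) in total mRNA, and Rplp1 (-0.95) and Rps15 (-1.03) in translational efficiency, with adjusted p of 0.999, 1 and 0.419 in these 3 sets by edgeR's test. DESeq2 called 23 members lower in translational efficiency (all genes 2.07%) and 0 in the others, and edgeR called 21 lower there without N CR-31 replicate 2 (all genes 6.85%). Without both lysates of N replicate 3 the medians were -0.08, 0.21 and -0.16, and no member had an unadjusted p under 0.05.

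The values of the members varied with the base composition of their coding sequences, a feature chosen after their values were seen. A coding sequence was found for 71 members, with a GC content of 44.9% to 61.6% (median 53.3%, all tested genes 53.2%) and a length of 75 to 1257 nt (median 468 nt, all tested genes 1377 nt). The difference of KP and N in polysomes rose with GC across the 71 members (Spearman's rho 0.56, Pearson's r 0.56), against a rho of 0.20 across 11383 tested genes. In same-numbered replicates rho was 0.39, 0.56 and 0.37, and without N replicate 3 it was 0.57. The 36 members at or above the median GC all had positive values, with a median of 0.46 and 17 called higher, while of the 35 below it 24 were positive, with a median of 0.16, 4 called higher and 2 lower. In total mRNA rho was 0.28 across members and 0.00 across all genes.

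The change with CR-31 in KP polysomes ran the other way, with a rho of -0.60 across members and -0.53 across all genes, and of -0.42, -0.66 and -0.43 in replicates 1, 2 and 3. Members at or above the median GC had a median of -0.25, and 3 of 36 were positive. Those below it had a median of 0.01, and 21 of 35 were positive. For translational efficiency in KP rho was -0.57 across members and -0.65 across all genes, and in N polysomes 0.35 and 0.13. In N polysomes rho across members was 0.40, -0.11 and 0.06 in replicates 1, 2 and 3, and without N replicate 3 it was 0.30 across members and -0.02 across all genes. Both comparisons with KP use the vehicle-treated KP polysome libraries, so these values are not independent, and genes of 1 library share its depth and base composition. The part of base composition in library preparation was not tested. Coding length, in contrast, had a rho of -0.07 and 0.02 in these comparisons across members, against -0.25 and 0.41 across all genes. The length of the C and T run at the start had a rho of 0.29 and -0.34 across 55 members, against -0.02 and -0.01 across 9204 genes.

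**Figure D5:**
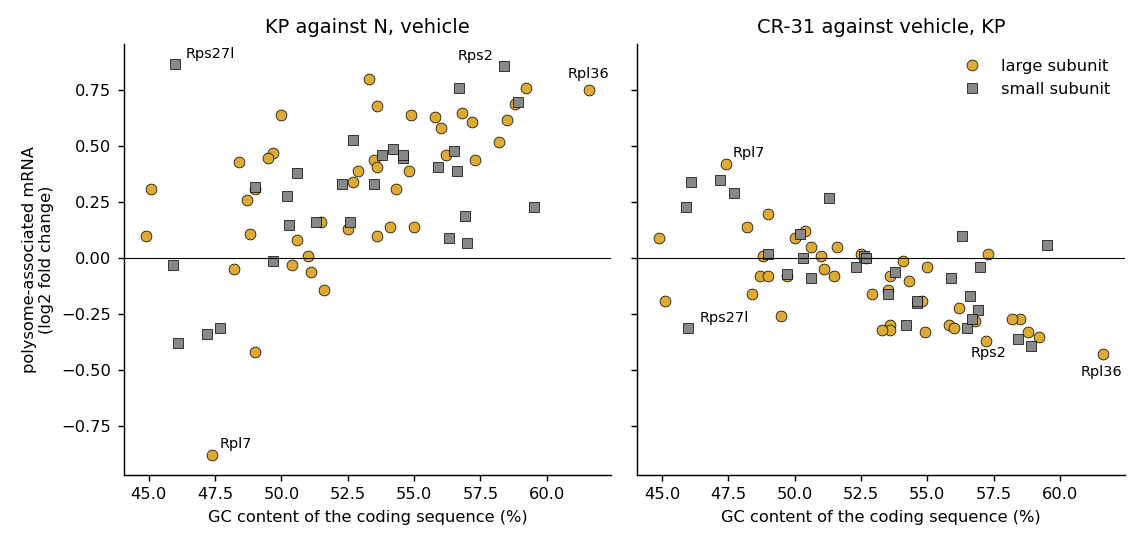
Log2 fold change in polysome-associated mRNA (y axis) against the GC content of the coding sequence (%, x axis) for 71 members, KP against N with vehicle on the left and CR-31 against vehicle in KP on the right, circles for the large and squares for the small subunit. The points rise on the left (rho 0.56) and fall on the right (rho -0.60), and Rps27l lies apart from both trends.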

How the data were processed

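The authors deposited raw read counts and RPKM per RefSeq gene for 24 libraries (HISAT2 and SAMtools per the labels; hg38 is named as the build, although the genes are of mouse, and the use of strand in counting is not given in the sources used here). The deposited counts were tested and the authors' RPKM used only for levels. Entries of several symbols (1042), 136 symbols with more than 1 entry, and genes without a count above 0 in all libraries were left out, leaving 11438 genes.

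edgeR 4.0.16 in R 4.3.3 (TMM, glmQLFit, glmQLFTest, Benjamini-Hochberg over all genes, threshold 0.25) was fitted to group means within each fraction, and, for translational efficiency and for polysome against total mRNA, to all libraries with lysate as a block and the interaction of fraction and group. CPM of members and of the other named genes are TMM-scaled within a fraction, while those of the cell type markers are scaled to all counted reads only. Alternatives were other scalings and filters, DESeq2 1.42.0, regression with limma 3.58.1, blocks, lanes and lysates left out. The scripts were tested on simulated data. Members and lists were chosen with earlier results of these data known. Named are a panel by role, the 3 members with the largest called changes or otherwise the smallest p in each comparison, symbols that failed the filter, and the extremes of level and of polysome ratio; Rpl8, Rpl18 and the members named without N replicate 3 were chosen after their values were seen. Some items that the rule names are not reported here.

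Same-numbered vehicle and CR-31 libraries deviated together across genes (r of 0.55 to 0.89 in N and 0.45 to 0.80 in KP, 6 of 6 pairs above 0.1 in each), while same-numbered N and KP libraries did not (-0.14 to 0.28). Replicate libraries differed by far more than counting error (chi-square of at least 251 per degree of freedom). Coding sequences came from GENCODE M21 (GRCm38), starts from RefSeq (GRCm38.p6). The depth of 47308461 to 267463046 counted reads per library limits only the rarest members.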

Additional observations from a re-analysis of the deposited data

How the results depend on the processing

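Called members of KP against N in polysomes (24) numbered 47 with the replicate block, 45 without both lysates of N replicate 3, 3 at a threshold of 0.05 (all genes 15.2%) and 8 to 39 with single lysates left out, and their median was 0.24 with upper-quartile scaling, which shifted the median of all genes to -0.13. In total mRNA (2) they numbered 9 with the replicate block, 0 at 0.05 (all genes 8.99%) and 0 to 10 with single lysates left out. For translational efficiency (0) they numbered 10 by regression, 20 without N replicate 3 and 0 to 1 with single lysates left out. For CR-31 in KP polysomes (0) they numbered 1 with the replicate block and, with N replicate 3 also left out, 33, and then 27 for translational efficiency and 9 for the difference in polysomes. The difference of CR-31 effects in translational efficiency gave 23 with DESeq2 and 0 to 21 with single lysates left out. Polysome against total mRNA gave 0 to 39 in N (27) and 0 to 32 in KP (10) with single lysates left out, 0 in both at 0.05 (all genes 3.58% and 1.12%), and in KP 6 without a filter and 42 without N replicate 3. In N polysomes with CR-31, Rpl41 turned to -0.04 without N replicate 3, to -0.06 with the replicate block as well and lay between -0.02 and 0.54 with single lysates left out, and Rpl39 between -0.06 and 0.64. Over entries of a single symbol the members' shares of reads were 13.3% to 17.4% by group, and moved by more than their SD in 5. Of the recomputed counts of calls and medians 564 stayed within 1.5 times the count or 1 SD of the median and 38 did not, and the replicate block changed no other count of calls. With 3 lysates a group, N replicate 3 in the shared spread and no lane with both organoid types, the counts of calls depend on which lysates enter, and the causes were not tested.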
